A study of Mus musculus with 4 samples.

Results

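RNA from hip joint articular cartilage of mice was compared gene by gene between 1 library of untreated Cbfb f/f mice, the control, and 1 library of Tamoxifen-injected Cbfb f/f;Col2a1-CreERT mice, which are labelled Cbfb-deficient. All 19856 genes with 10 or more counts summed over both libraries, of 50686 genes listed for the hip, are described. In both groups Cbfb carries the loxP-flanked (floxed) allele. The control has no Cre and is described as untreated, so the genotype, the Cre and the Tamoxifen cannot be told apart. The study's methods state that Cbfb f/f mice received Tamoxifen or corn oil, and its text calls the comparison mice wild type. The Col2a1 promoter drives CreERT in cells of the cartilage lineage, where Tamoxifen switches the recombinase on. Injections began at 2 weeks of age and went on for 5 days. Tissue was taken at 6 weeks from males by one description and at 2 months by another, and neither the background strain nor how many animals were pooled for a library is given in the sources used here. The labels name articular cartilage as the tissue, but their extraction notes speak of osteoblasts. The 2 hip libraries are of 4 in the series, the others being from the knee. With 1 library per condition there is no replicate error and no p-value, so every value compares 2 libraries, and the 95% intervals given here cover counting error only.

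Cbfb encodes the core binding factor subunit that does not itself touch DNA. It binds RUNX1, RUNX2 or RUNX3, keeps them stable and strengthens their hold on DNA at a short core motif. RUNX2 with Cbfb drives bone formation and the maturation of chondrocytes, RUNX1 is found in articular chondrocytes and blood stem cells, and RUNX3 acts in cartilage and lymphocytes.

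Reads counted on genes came to 38473120 in the control and 34582780 in the other library, and 30218 and 27278 genes had at least 1 count. The 10 genes with the most counts took 20.7% of the counts in each. Counts were scaled by the trimmed mean of M values (TMM), and a log2 ratio compares the library labelled Cbfb-deficient with the control after 0.5 was added to each count. A gene was called higher or lower when this ratio was at least 1 in size, which is 2-fold, and its counting interval excluded 0. Wherever a pair of counts is given, the control comes first. Cbfb had 2548 and 2946 counts, a log2 ratio of 0.41 (interval 0.33 to 0.48). The gene meant to be lost was thus not lower on this scale, and a count summed over all exons cannot tell whether one of them was removed. Its ratio had the opposite sign after a correction for transcript length and GC content, given below. At the protein level, the study reports less Cbfb by western blot in hip cartilage of Tamoxifen-injected mice of this line. Runx1 had 247 and 281 counts (0.38) and Runx2 280 and 191 (-0.35), and neither was called. Runx3 fell from 141 to 38 counts (-1.68, interval -2.25 to -1.17).

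Skeletal muscle RNA made up a large share of both libraries. A list of 20 fast muscle genes took 19.8% of the control counts and 18.5% of those labelled Cbfb-deficient, and Acta1, the skeletal alpha actin, was the gene with the most counts in the control, at 1645743. A list of 18 chondrocyte markers took 0.0317% and 0.0224%. Among the defining genes of cartilage, Col2a1, its main collagen, had 354 and 228 counts, Acan, which encodes aggrecan, 443 and 288, Matn3 46 and 13, and Hapln1, the link protein, 38 and 68. Comp and Prg4, which are also made by tendon, ligament and synovium, had 4715 and 1286, and 3965 and 7644. Both libraries therefore held cartilage RNA at low levels beside muscle. In such bulk RNA, fewer cells of a type and less RNA per cell cannot be told apart. Y-linked genes were counted in both libraries, and Xist, the RNA that coats the silenced X in females, had 5 and 1 counts.

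**Figure D1:**
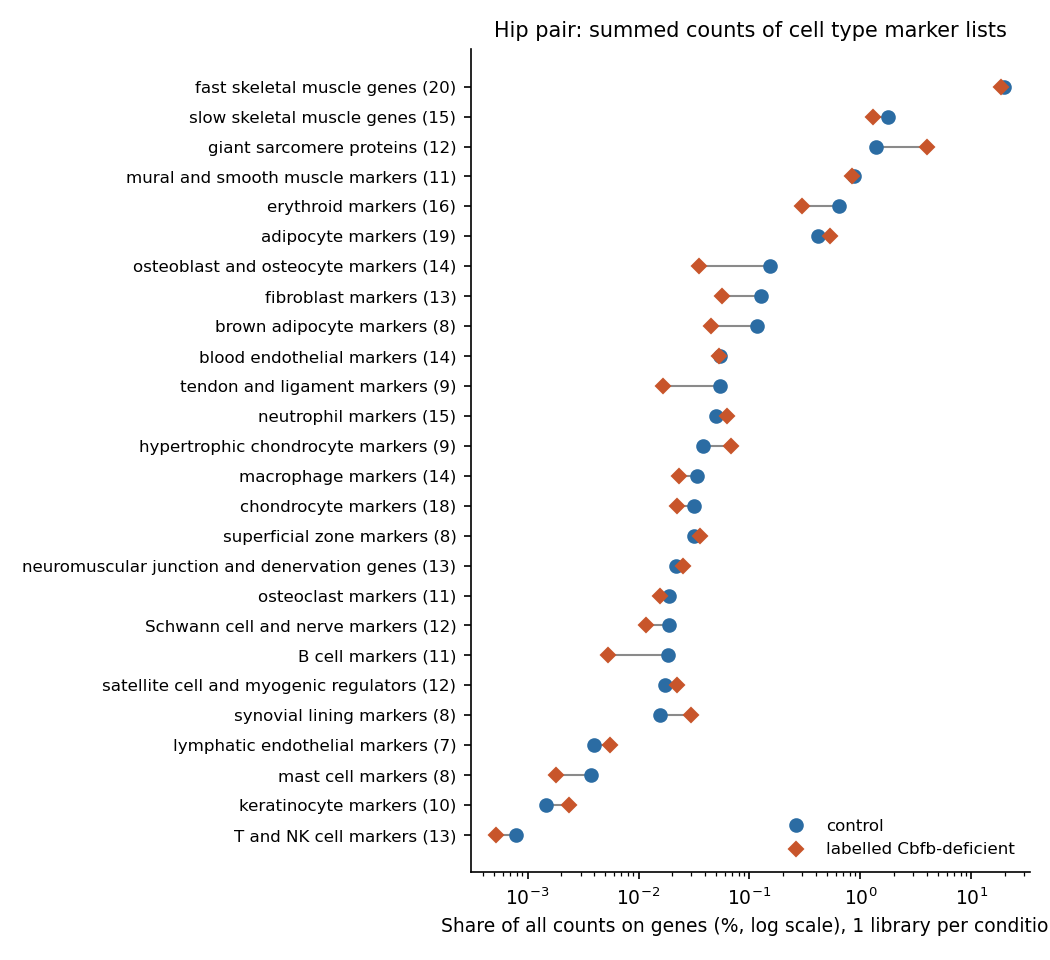
Share of all counts on genes taken by each of 26 cell type marker lists (horizontal axis, percent, log scale) in the control library (circles) and the library labelled Cbfb-deficient (diamonds), with the number of genes found in brackets. Fast muscle genes lie at 19.8% and 18.5%, chondrocyte markers at 0.0317% and 0.0224%, and osteoblast and osteocyte markers at 0.154% and 0.0347%.

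Of the 19856 genes, 7252 (36.5%) were called, 4018 of them higher (20.2%) and 3234 lower (16.3%). These percentages are the background against which the counts for gene groups are set. The higher genes were 55.4% of those called. Scaling on the upper quartile of counts moved the median log2 ratio of all genes from 0.01 to -0.33, and the share called higher among called genes from 55.4% to 36.8%, so directions are relative to the scaling. The ratios were widely spread, with quartiles at -0.71 and 0.84. Large falls outnumbered large rises, 1691 against 1455 at a log2 ratio of 2 or more in size and 485 against 226 at 4 or more. Lower calls gathered among sparsely counted genes. Of 4168 genes with 10 to under 30 counts over the pair, 29.1% were lower and 14.6% higher, while of 3109 genes with 3000 or more, 8.27% were lower and 15.7% higher. Of the tested genes, 359 were at 0 in the library labelled Cbfb-deficient and 124 in the control. Over all 50686 genes listed, 6032 had counts in the control alone and 3092 in the other library alone.

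**Figure D2:**
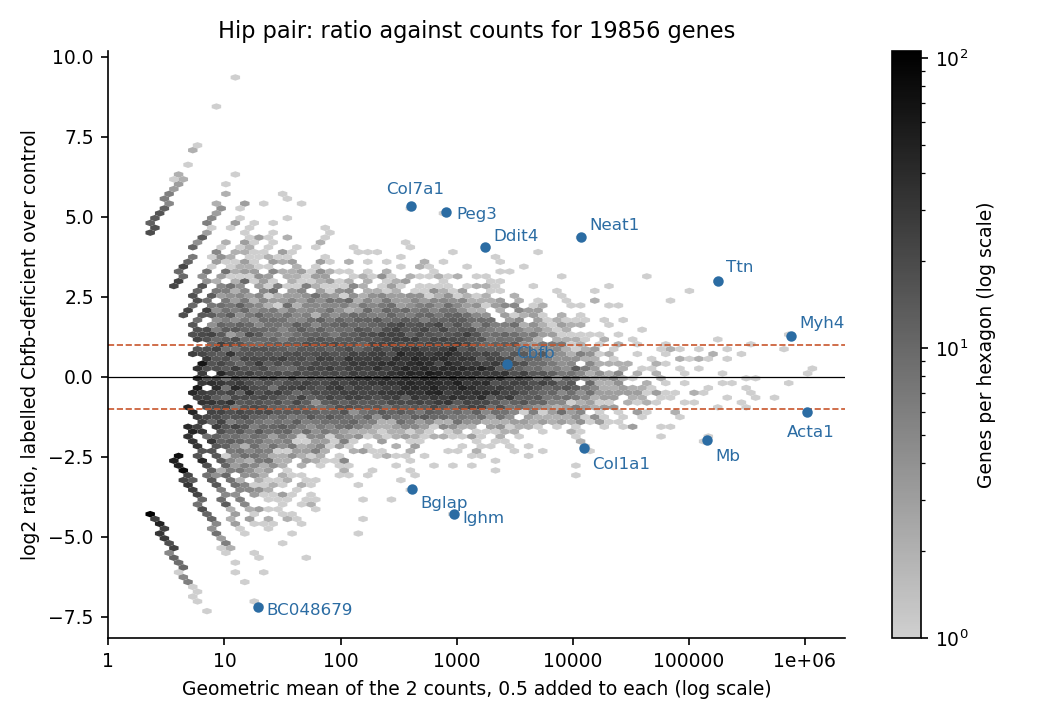
Log2 ratio of the library labelled Cbfb-deficient over the control (vertical axis) against the geometric mean of the 2 counts with 0.5 added to each (horizontal axis, log scale) for 19856 genes, with hexagons shaded by the number of genes and dashed lines at a ratio of 1 and -1. Ttn and Neat1 lie far above the lines at high counts, Mb, Col1a1 and Ighm below them, and the spread widens toward low counts.

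The ratio followed the length and the GC content of the transcript. Both were taken as the median over a gene's annotated transcripts, short ones included. Neat1 was thus classed at 748 bases and Col7a1 at 674.5. Across 19585 genes with a known transcript, Spearman's rho was 0.19 with length and -0.39 with GC content, as a description over genes that share the same 2 libraries. With the longest transcript of each gene instead, rho was 0.23 with length and -0.38 with GC content. Among 6563 genes with 1000 or more counts the values were 0.38 and -0.55, so the trend was not a feature of sparse genes. The 2706 genes long and low in GC (each the outer of 3 classes) had a median log2 ratio of 0.97, with 47.6% called higher and 5.84% lower. The 2399 short and GC-rich genes had a median of -0.55, with 8.63% higher and 28.3% lower. In the knee pair, over 17434 genes tested in both joints, rho was 0.27 with length and 0.01 with GC content. The part of RNA integrity or library preparation in the trend was not tested.

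The ratios were therefore also computed after the median of 20 classes of length, and then of GC content, was subtracted, in 2 rounds. Where a gene named here lost or gained its call on that scale, this is said beside its values. The calls on that scale used the medians over transcripts. On that scale Cbfb had a ratio of -0.46 (interval -0.54 to -0.38), opposite in sign to that before the correction, and was not called. There 2694 of 19585 genes were higher (13.8%) and 3028 lower (15.5%). Of 7118 called genes with such a value, 4695 (66.0%) stayed called in the same direction and 0 were called in the opposite one. Lower calls stayed at 76.0% (2419 of 3182) and higher calls at 57.8% (2276 of 3936).

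**Figure D3:**
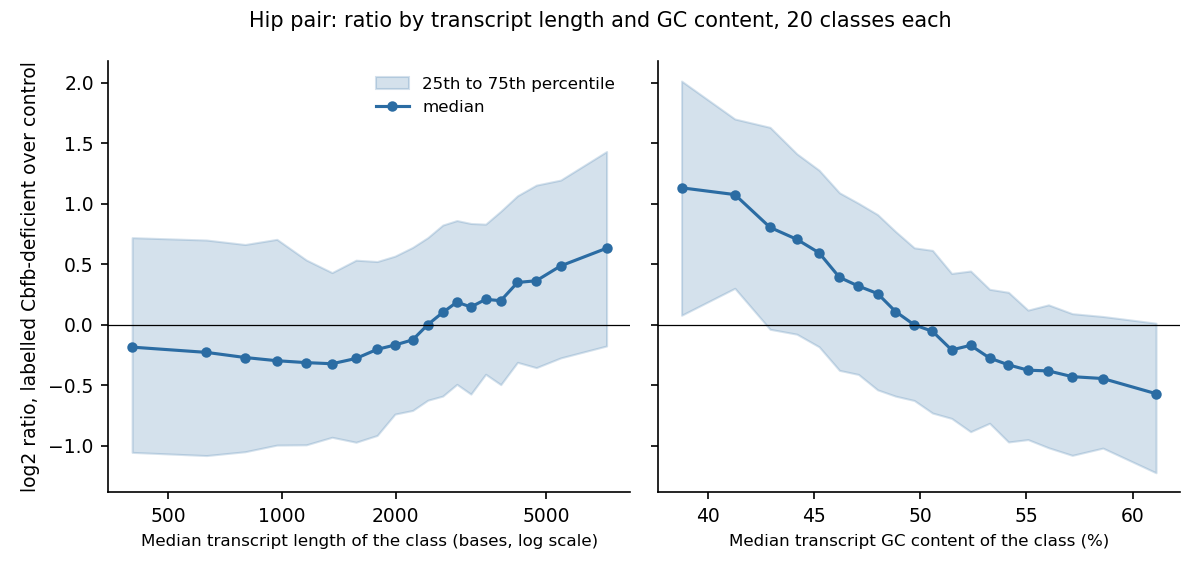
Median log2 ratio (line) with the 25th to 75th percentile (band) in 20 classes of genes by transcript length (left, bases, log scale) and by transcript GC content (right, percent). The median ran from -0.32 at about 1357 bases to 0.63 at 7215 bases, and from 1.13 at a GC content of 38.8% down to -0.57 at 61.1%.

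Where the library with more counts had 100 or more, the 10 largest rises of protein-coding genes included Col7a1, Peg3 and Tet2. Col7a1, whose product forms the anchoring fibrils below the epidermis, had 68 and 2392 counts, a log2 ratio of 5.32 (interval 4.99 to 5.70). Peg3, an imprinted zinc finger gene read from the paternal allele, had 147 and 4528 counts (5.14), and Tet2, an enzyme that oxidises 5-methylcytosine, 88 and 1399 (4.18). Both genes stayed high without the trend, at 4.45 and 3.49. Hif3a, a hypoxia-inducible factor subunit, rose from 16 to 282 counts (4.30). The others were 1700109H08Rik (4 and 214 counts), Tincr (5 and 216), Ovgp1 (6 and 173), Ms4a4a (5 and 105), Zfp930 (16 and 268) and Eno1b (16 and 259). All 10 remained called higher without the trend.

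Each of the 10 largest falls had 141 to 367 counts in the control and 1 to 8 in the other library. Otp, a homeobox gene of the hypothalamus, had 192 and 2 counts, a log2 ratio of -6.07 (interval -9.44 to -4.51). Neurod2, a neuronal basic helix-loop-helix factor, had 196 and 4 (-5.25), and Uncx, a homeobox gene of the somites and brain, 147 and 5 (-4.55). Slitrk5, a synaptic membrane protein, had 234 and 8 counts (-4.59) and Slc6a11, a GABA transporter, 141 and 4 (-4.78). BC048679 had 249 and 1 counts (-7.18, interval -13.07 to -5.27) and Tafa2, a secreted brain peptide, 228 and 1 (-7.05, interval -12.95 to -5.14). The last 3 were Atp8b3 (142 and 2), Tmem151b (367 and 6) and Chsy3 (211 and 6). All were called lower without the trend too.

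Promoters of these extremes are shown because RUNX factors, the partners of Cbfb, bind the core TGTGGT or TGCGGT. On either strand, a core lay within 250 bases before the RefSeq start in 2 of the 8 rises and 3 of the 9 falls with a promoter in the table used. They are printed 5′ to 3′ on the gene's strand in GRCm38.p6 with matches in capitals, ACCACA being TGTGGT on the other strand. The intervals are chr5:3571466-3571715 (+) for 1700109H08Rik, chr3:105973552-105973801 (+) for Ovgp1, chr10:80539125-80539374 (-) for Atp8b3, chr17:45549678-45549927 (-) for Tmem151b and chr6:114130991-114131240 (+) for Slc6a11.
1700109H08Rik: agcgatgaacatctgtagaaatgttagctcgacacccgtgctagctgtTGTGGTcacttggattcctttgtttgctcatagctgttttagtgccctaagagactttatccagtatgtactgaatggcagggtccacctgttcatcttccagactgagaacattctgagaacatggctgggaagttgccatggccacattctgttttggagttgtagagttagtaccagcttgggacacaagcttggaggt
Ovgp1: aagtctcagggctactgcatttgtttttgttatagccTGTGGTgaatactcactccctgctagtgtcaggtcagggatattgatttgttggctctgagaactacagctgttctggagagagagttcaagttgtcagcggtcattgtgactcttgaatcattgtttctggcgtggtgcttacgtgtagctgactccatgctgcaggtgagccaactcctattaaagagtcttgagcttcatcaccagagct
Atp8b3: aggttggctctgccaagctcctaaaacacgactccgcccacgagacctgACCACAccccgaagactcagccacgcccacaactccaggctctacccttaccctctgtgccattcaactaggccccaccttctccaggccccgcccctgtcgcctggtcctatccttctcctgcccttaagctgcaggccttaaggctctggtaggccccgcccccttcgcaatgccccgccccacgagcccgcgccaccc
Tmem151b: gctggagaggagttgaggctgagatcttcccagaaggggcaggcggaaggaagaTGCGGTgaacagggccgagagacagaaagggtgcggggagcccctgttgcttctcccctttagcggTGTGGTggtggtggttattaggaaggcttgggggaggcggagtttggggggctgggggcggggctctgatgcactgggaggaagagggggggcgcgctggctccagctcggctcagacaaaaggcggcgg
Slc6a11: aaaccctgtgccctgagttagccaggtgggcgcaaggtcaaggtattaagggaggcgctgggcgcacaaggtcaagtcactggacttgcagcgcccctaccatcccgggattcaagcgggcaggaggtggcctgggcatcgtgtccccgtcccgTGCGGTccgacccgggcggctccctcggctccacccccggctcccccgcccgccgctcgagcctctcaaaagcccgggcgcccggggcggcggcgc
The matches begin 202 bases before the start in 1700109H08Rik, 213 in Ovgp1, 201 in Atp8b3, 196 and 130 in Tmem151b and 96 in Slc6a11. Over all tested genes, 17.5% of 16426 promoters held a core. The share was 17.2% of 3216 promoters of higher genes and 19.2% of 2354 of lower genes. For TGTGGT alone it was 11.1% of all, 10.9% of those of higher genes and 13.5% of those of lower genes, whose promoters had a median GC content of 57.2% against 58.8% of all. A match of 6 letters is a description and does not show binding.

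Muscle genes were called in both directions. Ttn, which encodes the spring protein titin, had 67185 and 469639 counts, a log2 ratio with an interval of 2.99 to 3.01. Neb, the thin filament ruler nebulin, rose from 40223 to 229528 (2.71), Dmd, dystrophin, from 736 to 4634 (2.85), and Xirp2, an actin-binding protein, from 14569 to 113335 (3.16). Ttn, Neb and Xirp2 were among the 10 called genes that gained most in CPM, as were Myh4, Cmya5 and Trdn. Cmya5, which binds desmin and other muscle proteins, rose from 34349 to 154993 counts (2.37), and Trdn, triadin of the calcium release complex, from 12799 to 54499 (2.29, and 0.91 without the trend, not called). Cmya5 and Trdn were in none of the lists. The list of 12 giant sarcomere and membrane proteins had 6 higher and 0 lower with and without the trend, with a median of 1.28 (1.04 without the trend). Their counts made up 1.39% of the control library and 4.02% of the other. The median length over annotated transcripts was 2065 bases for Ttn, 2303 for Neb and 2860 for Xirp2. The correction thus classed these genes as of middling length, so it cannot show what part length had in their ratios. Ryr1, the calcium release channel of the sarcoplasmic reticulum, had a ratio of 0.62 and was not called.

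Fast muscle genes as a list had 1 higher and 4 lower of 20, and 2 and 2 without the trend. Their median of -0.48 became 0.01 without it. Myh4, the fastest myosin heavy chain, rose from 525762 to 1108488 counts (1.27). Myh1, another fast myosin, had 504693 and 858653 (0.96) and Actn3, the fast-fibre actinin of the Z disc, 246366 and 342188 (0.67), and neither was called. Acta1 fell from 1645743 to 674897 (-1.09), which was -0.48 and not called without the trend. Pvalb, a calcium buffer of fast fibres, fell from 313177 to 72059 (-1.92, and -1.72 without the trend). Among slow muscle genes, 1 of 15 was higher and 6 were lower (2 and 3 without the trend). Mb, the oxygen store myoglobin, fell from 304543 to 67821 counts (-1.97, and -1.40 without the trend), and Myl3, a light chain of slow myosin, from 31399 to 3202 (-3.10, interval -3.15 to -3.04). Atp2a1, the calcium pump of fast fibres, had 1166328 and 1157016 counts and a ratio of 0.19, and the troponin genes Tnnt3 (-0.21) and Tnni2 (-0.52) and the tropomyosin gene Tpm2 (-0.68) were not called. Tnnc2, the fast troponin C gene, was listed at only 41 and 51 counts (0.51, and 1.05, called, without the trend), and reads left uncounted as ambiguous between genes were 7.40% and 5.96% of those listed. Their part in the count of any gene was not tested.

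Of 81 nuclear genes for subunits of the oxidative phosphorylation complexes, 40 were lower and 0 higher, and 78 had counting intervals below 0. Their median was -0.99, and -0.73 without the trend, where 19 were lower. Ndufs8, a complex I subunit, fell from 11815 to 3024 counts (-1.77, interval -1.83 to -1.71), and Ndufs5, another, from 3187 to 715 (-1.96). The abundant ATP synthase genes Atp5f1b (165043 and 99437 counts) and Atp5f1a (143451 and 87104) had ratios of -0.53 and -0.52 and were not called. Mitochondrial ribosomal proteins, which translate the mitochondrial genome, showed 17 lower and 0 higher of 77, with a median of -0.68, and 69 had counting intervals below 0, as did 33.7% of all genes. Without the trend 11 were lower and 0 higher, with a median of -0.51. The citric acid cycle list had 4 lower and 0 higher of 19, with 14 intervals below 0, and 2 lower and 0 higher without the trend. The shares called lower were 22.1% and 21.1%, beside 16.3% of all genes, and the 0 higher calls stand beside 20.2% of all genes. Sdhc, a subunit of succinate dehydrogenase, had -1.40 (-1.35 without the trend), and Mdh2, malate dehydrogenase, -1.09 (-0.54, not called).

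The mitochondrial genome's own protein genes did not follow. Of 13, 2 were higher, mt-Cytb (252603 and 446229 counts, 1.02) and mt-Nd5 (132977 and 248500, 1.10), and mt-Nd3 was lower (2118 and 914, -1.01). Their median was 0.36. These transcripts are low in GC, at a median of 37.1%, and without the trend the median was -0.49, 0 were higher and 2 lower. The sign of this group therefore rested on the trend, while that of the nuclear subunits was the same on both scales.

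In fatty acid uptake and oxidation 9 of 22 genes were lower and 3 higher, and without the trend 5 and 2. Fabp3, a fatty acid carrier of muscle, had 29633 and 3644 counts (-2.83), and Hadha, an enzyme of mitochondrial beta-oxidation, 25568 and 11017 (-1.02, and -0.94 without the trend, not called). The 3 that rose were Cpt1b, the entry step of mitochondrial oxidation in muscle, from 59 to 191 counts (1.88, and 2.09 without the trend), Lpl, which frees fatty acids from lipoproteins, from 16993 to 50613 (1.77), and Pdk4, a kinase that shuts glucose carbon out of mitochondria, from 10462 to 29927 (1.71). Pdk4 had 0.88 without the trend and was not called. Plin4, a lipid droplet coat protein, rose from 6694 to 30321 (2.38). Scd1, the desaturase that makes oleate, fell from 6249 to 741 counts (-2.88, and -3.33 without the trend). Of 18 glycolysis enzymes, 6 were lower and 0 higher, with a median of -0.78, and without the trend 1 was lower. Pgam2, the muscle phosphoglycerate mutase, was that gene, at -1.78 and -1.21. Pkm, Tpi1 and Ldha were also among the 10 largest losses in CPM, and fell from 137296 to 52377 counts (-1.19), from 124710 to 48781 (-1.16) and from 115073 to 48355 (-1.05). They had -0.84, -0.62 and -0.65 without the trend and were not called there. The more abundant Aldoa (746856 and 420028, -0.63) and Gapdh (386819 and 248602, -0.44) were not called on either scale. Among creatine kinases, which buffer ATP in muscle, the mitochondrial Ckmt2 fell from 62391 to 19096 (-1.51, and -1.25 without the trend), and the cytosolic Ckm had 468136 and 213814 counts (-0.93) and was not called. ENSMUSG00000106106, which the annotation used here does not name, fell from 115283 to 32960 (-1.61). In glycogen metabolism 3 of 12 were higher and 0 lower, and 2 and 0 without the trend, including the targeting subunits of protein phosphatase 1 Ppp1r3a (2333 and 11090 counts, 2.45) and Ppp1r3c (5121 and 20715, 2.21). Glul, glutamine synthetase, was among the 10 called genes that gained most in CPM, from 8159 to 52570 (2.89).

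Among 17 genes of muscle atrophy and autophagy, 11 were higher and 0 lower, and 4 had a ratio and interval below 0. Their median was 1.34, and 1.43 without the trend, where 9 were higher and 0 lower. Fbxo32, the muscle ubiquitin ligase atrogin-1, had 4552 and 20224 counts (2.35, interval 2.30 to 2.40), and Trim63, the ligase MuRF1, 6135 and 11657 (1.12). Their known activators Foxo1 (709 and 2273, 1.88) and Foxo3 (877 and 2897, 1.92) were higher as well. Ddit4, an inhibitor of mTOR complex 1 signalling, had 467 and 6726 counts, a ratio of 4.04 (interval 3.91 to 4.18). Klf15, a glucocorticoid-responsive factor, rose from 1520 to 4162 (1.65), Cdkn1a, the cell cycle inhibitor p21, from 1551 to 3362 (1.31), and the metal-binding Mt1 and Mt2 from 765 to 5185 (2.96) and from 9 to 96 (3.54). The autophagy members Sqstm1 (-0.21), Map1lc3a (-0.12) and Ulk1 (-0.51) were not called. Mstn, the muscle growth inhibitor myostatin, rose from 725 to 2221 (1.81), and had 0.71 without the trend, not called.

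Insulin and IGF signalling genes had 9 higher and 2 lower of 20, and 6 and 3 without the trend. Insr, the insulin receptor, rose from 1206 to 4375 counts (2.06), Irs2, its adaptor, from 660 to 1508 (1.39), and Pik3r1, the regulatory subunit of phosphoinositide 3-kinase, from 681 to 7247 (3.61, interval 3.50 to 3.72). Those 3 stayed called without the trend, at 1.94, 1.38 and 3.57. Tbc1d4, which controls the movement of glucose transporters, also rose (1.65). The 2 that fell were IGF-binding proteins, Igfbp5 (21152 and 7082, -1.38) and Igfbp6 (7185 and 2241, -1.48, and -0.74 without the trend, not called). Akt2, the kinase below the receptor, had a ratio of -0.65.

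Clock genes did not all move one way. Among 18, 8 were higher and 1 lower, and 6 and 1 without the trend. The repressors Per1 (2341 and 6359 counts, 1.64), Per2 (482 and 1460, 1.80) and Per3 (721 and 1681, 1.42) rose, as did Rora, a nuclear receptor that activates Bmal1, from 892 to 4903 (2.66). Bmal1 itself had 159 and 348 counts (1.33, and 0.82 without the trend, not called). Dbp, an output gene of the clock, fell from 6929 to 1228 (-2.30, interval -2.39 to -2.21), and the repressor Nr1d1 had 5813 and 2718 (-0.90). The time of day at which tissue was taken is not given in the sources used here, and its part was not tested. Immediate early genes, which respond within minutes to signals and handling, had 7 higher and 0 lower of 20, and 10 and 0 without the trend. Fosb rose from 28 to 205 counts (3.05), Fos from 740 to 2046 (1.66), Klf6 from 1059 to 4236 (2.20) and Egr1 from 854 to 1757 (1.24). Jun (4160 and 6088, 0.75, but called without the trend) and Nr4a1 (4837 and 5730, 0.44) were not called.

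**Figure D4:**
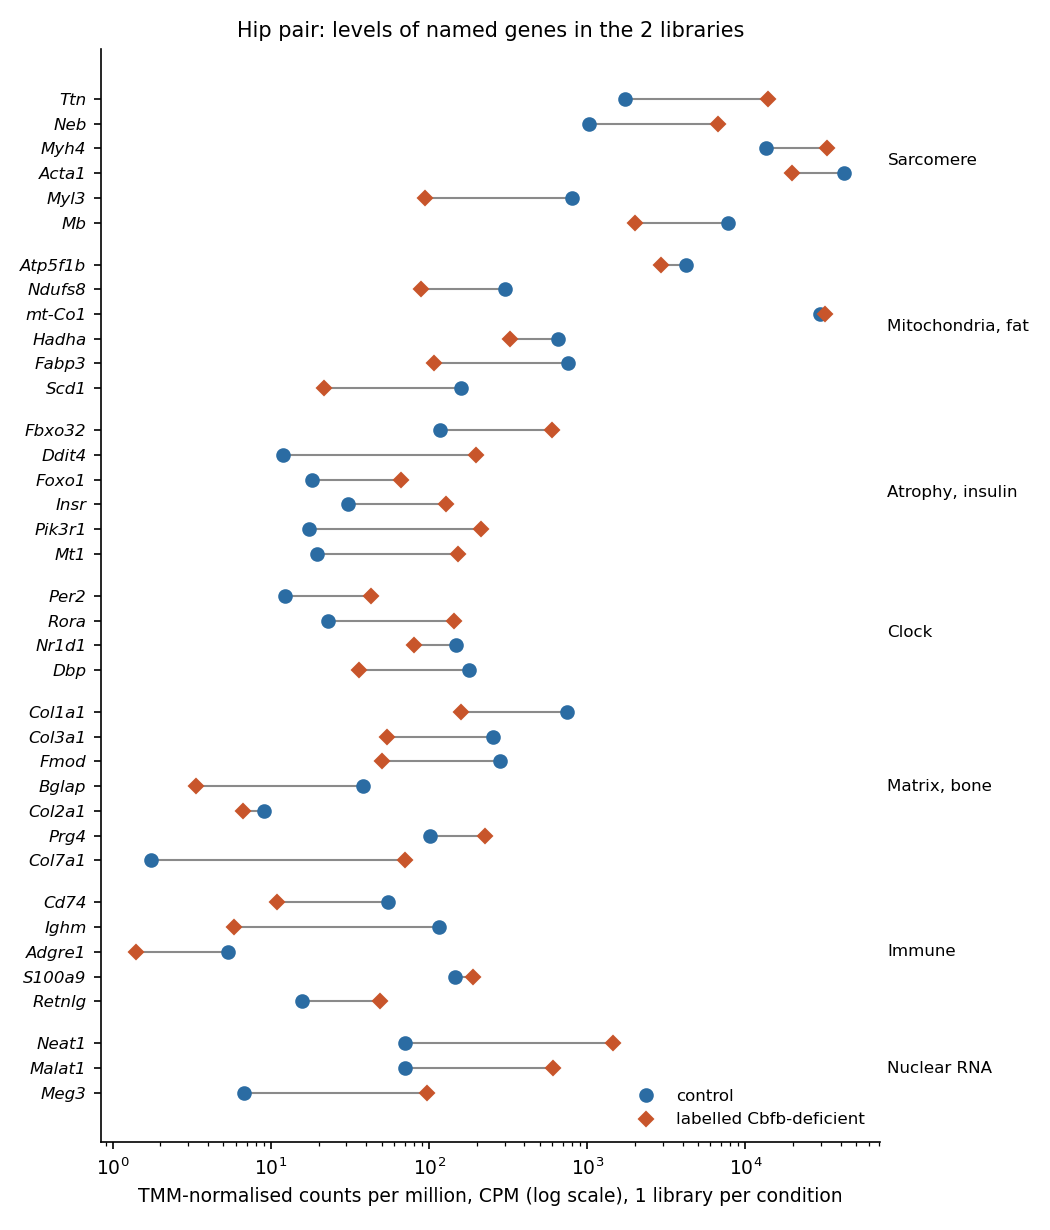
TMM-normalised CPM, the scaled share of a library's counts (horizontal axis, log scale) of named genes in the control library (circles) and the library labelled Cbfb-deficient (diamonds), 1 library per condition and no error bars. Ttn, Ddit4, Pik3r1, Col7a1 and Neat1 lie to the right in the library labelled Cbfb-deficient, and Myl3, Fabp3, Dbp, Bglap and Ighm to the left, while mt-Co1 and Col2a1 differ little.

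Among matrix genes calls lay in both directions. Of 44 collagen genes 19 were lower and 8 higher, with a median of -0.87 (-0.75 without the trend, 17 lower and 8 higher). Col1a1 and Col1a2, the chains of type I collagen, fell from 29148 to 5430 counts (-2.23, interval -2.27 to -2.18) and from 26252 to 5540 (-2.05). Col3a1, abundant in soft connective tissue, fell from 9878 to 1850 (-2.22), and Col15a1 from 1121 to 134 (-2.86). The 8 that rose included Col7a1 (5.32), Col20a1 (113 and 473, 2.26) and Col5a3 (353 and 1037, 1.75). Fibroblast markers had 9 lower and 0 higher of 13, and 11 lower without the trend. Dcn, the small proteoglycan decorin, showed 17218 and 10726 counts and a ratio of -0.49, which was -1.86 and called without the trend. In the family it belongs to, 6 of 12 were lower with a median of -0.84, and without the trend 10 were lower with a median of -1.48. Its member Fmod, fibromodulin of tendon, fell from 11027 to 1725 (-2.48). Tendon and ligament markers as a list had 4 lower and 0 higher of 9, with Kera, keratocan, at 352 and 37 counts (-3.03).

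Osteoblast and osteocyte markers had 6 lower and 1 higher of 14. Bglap and Bglap2, the adjacent osteocalcin genes, fell from 1482 to 114 counts (-3.50, interval -3.79 to -3.23) and from 1128 to 69 (-3.82, interval -4.21 to -3.48), and reads may be split between these near-identical copies. Alpl, the phosphatase of mineralising cells, fell from 1919 to 517 (-1.69). Dmp1, an osteocyte matrix gene, had 329 and 413 counts (0.53), and Mepe, another, rose from 22 to 53 (1.45). Among chondrocyte markers, 5 of 17 were lower and 3 higher, and without the trend 5 and 1. Chad (2566 and 639 counts, -1.81), Matn3 (-1.59) and Col10a1 of the hypertrophic zone (164 and 43, -1.72) fell, and Comp fell by 1.68 but was not called without the trend (-0.99). Col9a3, a chain of the collagen that decorates type II fibrils, rose from 22 to 59 counts (1.60, and 1.92 without the trend). Col2a1 (-0.44) and Acan (-0.42) were not called. Prg4, the lubricin of the joint surface, rose (1.14), and was not called without the trend (0.87). Hapln1 rose (1.03), which was -0.35 without the trend, and Sox6, a transcription factor of chondrocytes that muscle also expresses, rose from 2149 to 4012 counts (1.10, and 0.31 without the trend, not called). Muscle and connective tissue shares moved beside these values, and their part in them was not tested.

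**Figure D5:**
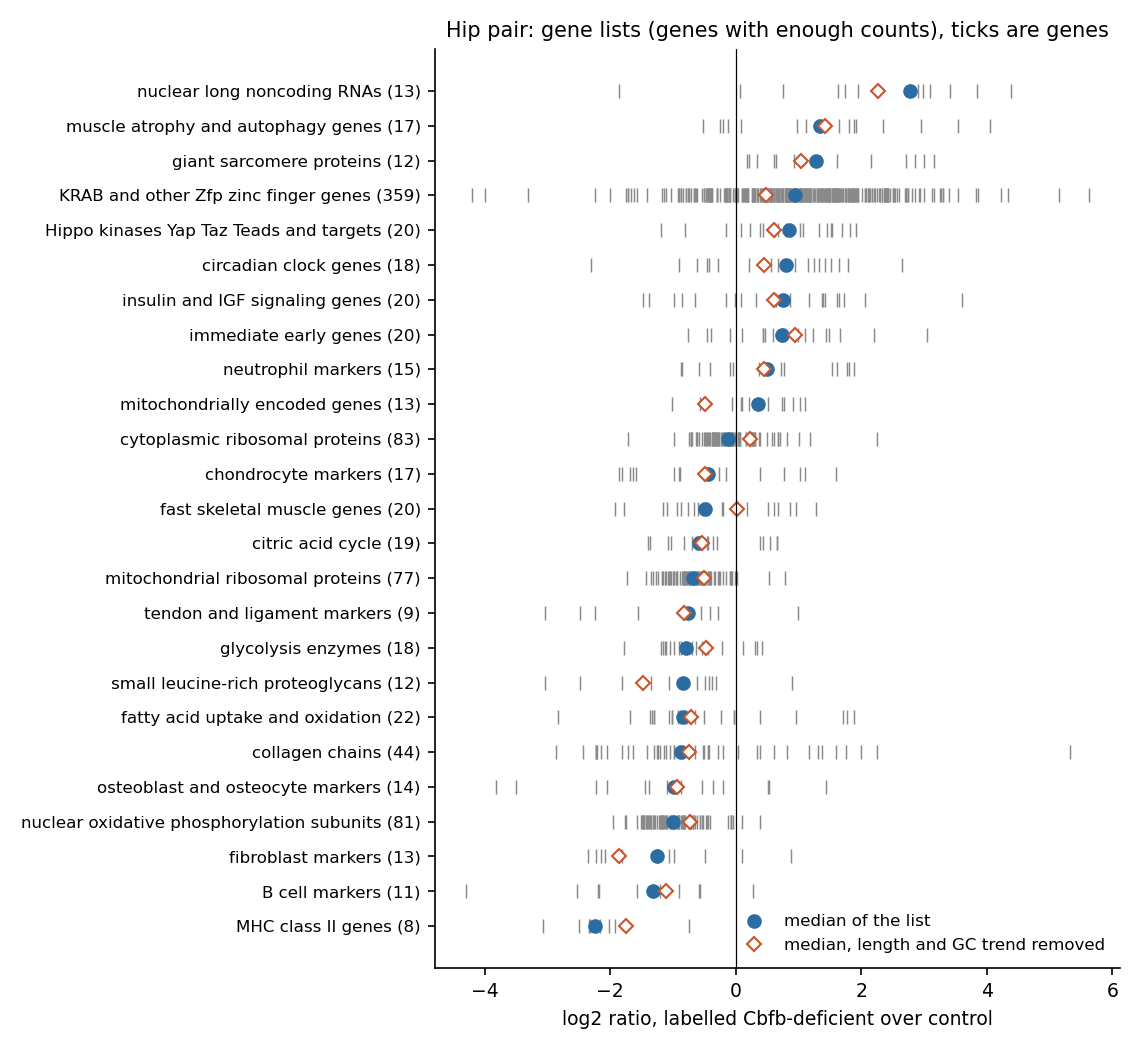
Log2 ratios of the genes in 25 lists (grey ticks, number of genes tested in brackets), with the median of each list (circles) and the median after the length and GC trend was removed (open diamonds). Nuclear long noncoding RNAs (2.78) and atrophy genes (1.34) stand highest, MHC class II genes (-2.24) and B cell markers (-1.31) lowest, and the mitochondrially encoded genes, fast muscle genes and cytoplasmic ribosomal proteins change sign between the scales.

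Immune cell lists differed in their counts. Of 8 MHC class II genes 7 were lower and 0 higher, with a median of -2.24 (-1.75 without the trend). Cd74, the invariant chain, fell from 2154 to 371 counts (-2.34) and H2-Ab1 from 1399 to 217 (-2.49). B cell markers had 7 lower and 0 higher of 11, and 6 and 0 without the trend. Ighm, the heavy chain of IgM, fell from 4495 to 200 (-4.29, interval -4.50 to -4.09), and Cd79a from 253 to 48 (-2.19). Igkc, the kappa light chain, had 1197 and 703 counts (-0.57). T and NK cell markers were sparse and had 2 higher and 4 lower of 9, and 2 and 2 without the trend. Cd3e, a chain of the T cell receptor complex, fell from 100 to 29 (-1.57) and Cd3d, another, rose from 24 to 44 (1.06). Macrophage markers showed 5 lower and 1 higher of 14, and 5 and 0 without the trend, with Adgre1, the F4/80 antigen, at 210 and 48 (-1.92) and Csf1r, the receptor for colony stimulating factor 1, at 1342 and 531 (-1.14). The macrophage marker that rose was Cd163, a haemoglobin scavenger receptor (241 and 462, 1.14), which had 0.68 and was not called without the trend. Neutrophil markers had 5 higher and 0 lower of 15, and 7 and 0 without the trend, including Retnlg (616 and 1654, 1.62) and Mmp8 (179 and 576, 1.88), while the granule genes S100a9 (0.37), S100a8 (0.76) and Ngp (-0.04) were not called. Erythroid markers had 4 lower and 1 higher of 16, and 3 and 1 without the trend, and Hba-a1, an alpha globin with a near-identical copy, fell from 129298 to 36458 (-1.63). The marker lists of B cells, macrophages and erythroid cells took 0.0186, 0.0337 and 0.640% of the control counts and 0.00528, 0.0231 and 0.296% of the others, while that of neutrophils took a larger share in the library labelled Cbfb-deficient (0.0623%) than in the control. The part of marrow and blood content in these values was not tested.

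Blood endothelial markers had 1 higher and 0 lower of 14 on both scales, at 0.0542% and 0.0533% of counts. Flt1, a VEGF receptor, rose from 1607 to 3594 (1.36), and Pecam1 (0.51) and Cdh5 (-0.53), both junction proteins, were not called. Adipocyte markers had 6 higher and 3 lower of 19 (5 and 1 without the trend) and brown adipocyte markers 3 and 3 of 8 (1 and 2). Lep, the hormone leptin, fell from 120 to 4 counts (-4.55, interval -6.61 to -3.32), and Ucp1, the uncoupling protein of brown fat, had 70 and 1 (-5.36, interval -11.26 to -3.41). Retn, resistin, rose from 48 to 267 (2.66). Adipoq, the adipocyte hormone adiponectin, had 559 and 590 counts (0.28).

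In the Wnt, TGF-beta and Hippo pathways, which the study set out to examine, calls lay in both directions. Over all genes 20.2% were higher and 16.3% lower, and without the trend 13.8% and 15.5%. Wnt ligands, receptors and regulators had 3 higher and 7 lower of 31 (3 and 6 without the trend). The ligand Wnt5b fell from 720 to 113 counts (-2.47), and another ligand, Wnt2b, rose from 31 to 128 (2.23). Intracellular and target genes had 5 higher and 5 lower of 20 (3 and 3 without the trend). Lef1 (98 and 26, -1.70) and Ccnd1 (289 and 90, -1.48) fell, and Apc, a scaffold of the beta-catenin destruction complex (374 and 1590, 2.28), and Znrf3, which clears Wnt receptors (104 and 195, 1.10), rose. Ctnnb1, beta-catenin, had 4354 and 5902 counts (0.64). TGF-beta and BMP genes had 7 higher and 3 lower of 33, and 2 and 3 without the trend. The 7 higher were 21.2% of the list, near the share over all genes. The activin receptor Acvr2a rose from 177 to 853 (2.46). The list's median of 0.32 was -0.06 without the trend and -0.02 under upper quartile scaling. Of 20 Hippo genes 9 were higher and 1 lower, with a median of 0.85, and without the trend 5 and 0, with a median of 0.61. Tead1, a DNA-binding partner of Yap, rose from 3952 to 7263 (1.08), and the Yap targets Ankrd1 (602 and 1510, 1.52) and Amotl2 (906 and 2164, 1.45) rose. Ccn1, another target, had 2831 and 3247 (0.40). In the Hedgehog and PTHrP list 3 of 13 were lower and 0 higher (2 and 2 without the trend), with Pth1r, the PTHrP receptor, at 934 and 277 (-1.55).

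The list of long noncoding RNAs, most of them kept in the nucleus, had the highest median of the 67 lists. Of 13, 10 were higher and 1 lower, with a median of 2.78, and without the trend 9 and 0, with a median of 2.27. Neat1, the scaffold of paraspeckles, had 2742 and 49846 counts (4.38, interval 4.33 to 4.44), and Malat1, an RNA of nuclear speckles, 2751 and 20564 (3.10). Meg3 and Rian, from the maternal allele of 1 imprinted cluster, rose from 264 to 3314 (3.85) and from 203 to 1891 (3.41). H19, a mainly cytoplasmic imprinted RNA of muscle, had 28416 and 25908 (0.06). Zinc finger genes named Zfp, whose transcripts had a median GC content of 45.2%, had 169 higher and 14 lower of 359, with a median of 0.94. Without the trend 86 were higher and 16 lower, with a median of 0.49. Zfp445 rose from 229 to 2322 (3.54). Among other noncoding genes with 100 or more counts, Gm37422 had 0 and 285 counts, at least 109-fold higher against a floor of 3 counts in the control, and Gm45774 had 0 and 153, at least 58.5-fold higher. Mir5125 had 16 and 346 (4.59), and 1700019L13Rik 142 and 1 (-6.37, interval -12.27 to -4.45).

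Of 83 cytoplasmic ribosomal protein genes, 3 were higher and 1 lower (4 and 3 without the trend, and 1 and 7 under upper quartile scaling). Their median of -0.12 was 0.22 without the trend and -0.47 under upper quartile scaling. Rplp0 had 57081 and 29798 counts (-0.74) and Rpl23 6256 and 12336 (1.18). Translation factors had 18 higher and 2 lower of 65, without the trend 7 and 3, and under upper quartile scaling 12 and 8, where their median of 0.12 became -0.23. Among spliceosome proteins 6 of 34 were higher and 1 lower (4 and 2 without the trend), with Prpf39, a splicing factor, at 108 and 1055 counts (3.48, and 2.18 without the trend). Of 20 genes that cells use to divide, 1 was higher and 0 lower on both scales. That gene was Mki67, at 208 and 601 counts (1.73).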

How the data were processed

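Poly-A RNA-seq of 1 control and 1 hip library labelled Cbfb-deficient was analysed. The authors deposited whole-number HTSeq counts per Ensembl gene, not normalised. Their summary lines (25.8% and 24.6% of listed reads) were left out. Submitters' notes list STAR 2.0, FastQC 0.11.3 and mm10, while the study's methods give GRCm39. The strand setting is not given in the sources used here. Names, transcript lengths and GC content came from the GENCODE annotation of GRCm39 (98.6% of tested genes matched), and promoters, with their coordinates, from RefSeq on GRCm38.p6. TMM used edgeR 4.0.16 in R 4.3.3, the DESeq2 1.42.0 size factors were an alternative, and ratios, with 95% Clopper-Pearson counting intervals, used Python 3.11.15, numpy 2.4.6, pandas 2.3.3 and scipy 1.17.1. Figures were drawn with matplotlib 3.10.9. A count of 3 was the floor, 0.0768 and 0.0881 CPM. DESeq2's test cannot estimate a spread from 1 library per condition and was not run.

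The members, the 67 lists and the tests were chosen with earlier results of these data known. Genes named were taken from the 10 largest rises and falls among called protein-coding genes with 100 or more counts in the higher library, the 10 largest gains and losses in CPM among called genes, the 10 genes with most counts in each library, Cbfb and the Runx genes, in each list the 3 members with most counts and the largest called rise and fall with 50 or more counts, and the 5 largest noncoding rises and falls. Other list members and the defining markers given were chosen after their values were seen. Genes with near-identical copies, overlapping genes and antisense pairs may share reads. In simulated counts for the hip pair, 199 of 200 changed genes were recovered among 19889 genes, and 0.80% of the unchanged genes were called. The simulation held counting error only, with no trend and a known scaling. Its planted changes were larger than the call limit and lay in well-counted genes. It therefore does not test the calls of the real pair.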

Additional observations from a re-analysis of the deposited data

How the results depend on the processing

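No paired analysis was possible because each condition had 1 library, so no replicate could be left out either. Under other scalings the share of called genes that were higher, 55.4% in the report, was 52.0% with DESeq2 size factors, 53.3% with library size and 36.8% with the upper quartile. Leaving muscle and mitochondrial genes out of the scaling kept the counts of calls within 1.5 times. The share was 53.5% with no count filter (33310 genes), 56.9% with 5 added to each count and 47.1% without the length and GC trend. With 10 or more counts in each library 4548 genes were called, 1435 of them lower (68.4% higher), and with 100 or more over the pair 3855, 1124 of them lower (70.8% higher). Intervals wholly beyond 2-fold left 4298 genes, 2676 higher and 1622 lower (62.3% higher). Spearman's rho with length was 0.28 with 100 or more counts, and that with GC content -0.20 with no filter. Mef2c (1.26) had -0.10 and Hapln1 (1.03) -0.35 without the trend, the only named genes called whose ratio changed sign under an alternative. The cause of these shifts was not tested. Under upper quartile scaling 64 of 81 oxidative phosphorylation subunits and 40 of 77 mitochondrial ribosomal proteins were lower, kinesins and dyneins had 7 higher and 18 lower of 59, and synovial lining and hypertrophic chondrocyte markers had 0 higher. Genes under 10 counts over the pair were left out of the counts in the report.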

Other observations

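Chromosomes and classes of RNA differed in their calls. On the X chromosome 29.7% of 613 genes were higher and 8.16% lower, with a median log2 ratio of 0.42, or 0.09 on the scale corrected for length and GC. The median GC content of these genes was 46.7%. The 4 Y-linked genes of a list of 5 sex-linked genes that could be tested were all higher, Ddx3y from 1070 to 2983 counts, Eif2s3y from 476 to 2249, Kdm5d from 210 to 470 and Uty from 137 to 548, and their median of 1.94 was 0.75 without the trend, where 2 of the 4 were higher. Long noncoding genes were called more often in both directions (28.3% higher and 23.7% lower of 1698) than protein-coding genes (19.4% and 14.7% of 15520), and processed pseudogenes were lower more often than higher (21.9% and 11.1% of 1243). Of 21 miRNA genes 11 were higher, although poly-A libraries do not capture mature miRNAs. These differences were not tested. Messages for the large histone family had 7 lower and 1 higher of 30, and 6 and 2 without the trend, with H3c15 at 139 and 45 counts (-1.42, and -0.71 without the trend). The mitochondrial tRNA and rRNA genes had 2 lower of 5 tested, and 5 without the trend, and mt-Rnr2 had 114226 and 82911 counts (-0.26, and -1.09, called, without the trend).

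For further groups the counts without the trend stand in brackets after those with it. Solute carriers had 54 higher and 54 lower of 310 (40 and 47, and 36 and 83 under upper quartile scaling), beside a background of 20.2% and 16.3%, from Slc39a2, a zinc importer (10 and 133 counts, 3.87), to Slc22a13 (52 and 1, -4.93, interval -10.83 to -2.96). Kinesins and dyneins had 14 higher and 13 lower of 59 (8 and 14), and Kif5b, a motor of many cargoes, rose from 1768 to 6250 (2.02, and 0.76 without the trend, not called). Cholesterol synthesis had 5 higher and 2 lower of 19 (3 and 1), fatty acid and triglyceride synthesis 2 and 2 of 16 (0 and 2), lipid droplet proteins 1 and 4 of 15 (1 and 0), and heat shock proteins 2 and 1 of 17 (0 and 0). Proteasome subunits had 1 higher and 4 lower of 37 (0 and 2) and ATF4 targets 1 and 1 of 16 (1 and 2). Hox genes had 3 higher and 9 lower of 30 (5 and 7). Interferon response genes had 4 and 4 of 20 (1 and 4), and chemokines and cytokines 2 and 7 of 20 (2 and 10), with Cxcl14 at 2044 and 550 (-1.70) and Cxcl13 at 11 and 123 (3.62). Matrix proteases and inhibitors had 6 higher and 13 lower of 35 (6 and 8), Mmp2 falling from 4374 to 1410 (-1.44) and Timp3 rising from 1366 to 3516 (1.56). Core binding factor and its partners had 0 higher and 1 lower of 10 (0 and 1).

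Further cell types were read from their markers. Satellite cell and myogenic regulators had 2 higher and 0 lower of 10 on both scales, with Pax3 at 17 and 56 counts (1.89), and junction and denervation genes 3 and 2 of 13 (2 and 1 without the trend), with Chrnb1, a subunit of the acetylcholine receptor, at 611 and 1724 (1.69). Synovial lining markers had 3 higher and 0 lower of 8, with a median of 0.87, and 1 and 0 without the trend, with a median of 0.21. Superficial zone markers had 1 and 1 of 8 (0 and 2 without the trend), hypertrophic chondrocyte markers 2 and 3 of 9 (0 and 3) and osteoclast markers 2 and 1 of 10 (1 and 2). Schwann cell and nerve markers had 1 higher and 1 lower of 12 (1 and 0). Mural and smooth muscle markers had 1 higher and 2 lower of 11 (0 and 2), lymphatic endothelial markers 2 and 0 of 6 (1 and 1), while mast cell markers had 1 and 3 of 8 and keratinocyte markers 1 and 1 of 6 on both scales.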
